A study of Mus musculus with 6 samples.

Results

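The p53 pathway was represented by 34 genes, chosen by symbol out of the 41214 genes counted in each library: Trp53, which encodes p53, its direct regulators, and known p53 targets that act in cell cycle arrest, cell death, DNA repair and metabolism. All 34 symbols were found and all 34 genes passed the filter on low counts. They were compared between mouse mammary tumour explant cells carrying a hairpin RNA against CdGAP (shCdGAP, genotype label CdGAP KD, 3 libraries) and the same kind of cells carrying a control hairpin (shCTL, genotype label WT, 3 libraries). Both groups express the receptor tyrosine kinase ErbB2 and go back to NMuMG, an epithelial cell line established from the mammary gland of a healthy mouse. CdGAP, the product of Arhgap31, is a GTPase-activating protein for Cdc42 and Rac1, and the series asks how it bears on E-cadherin transcription. The labels do not say whether replicates came from separate cultures or how many hairpins or clones were used, so the p-values speak only to library-to-library variation, part or all of which could be technical.

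p53 is a transcription factor that is held at a low level by the ubiquitin ligase Mdm2 and its partner Mdm4. DNA damage, oncogene activity and other stresses release it from this control, and it then switches on genes that halt the cell cycle, start cell death, repair DNA and adjust metabolism. Mdm2 is itself a p53 target, so the pathway contains a negative feedback loop. The activity of p53 is set largely at the level of the protein, which RNA counts do not measure.

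The libraries held 19176540 to 26824249 fragments assigned to genes, so 1 count was worth 0.0364 to 0.0516 CPM (counts per 1e+06, scaled between libraries by TMM). Arhgap31, the gene targeted by the hairpin, was at 1.70, 9.16 and 8.21 CPM in shCdGAP replicates 1 to 3, against 13.2, 14.4 and 15.1 CPM in shCTL replicates 1 to 3. The groups did not overlap, but the log2 fold change of -1.16 ± 0.55 (SE) did not pass the edgeR quasi-likelihood test (adjusted p = 0.19), and without shCdGAP replicate 1 it was -0.71 and passed (adjusted p = 0.00407). That library stood apart in another way: 6 proliferation genes (Mki67, Top2a, Ccnb1, Cdk1, Mcm2 and Pcna) summed to 275 CPM in it, to 2686 and 2446 CPM in the other shCdGAP libraries, and to 1410, 2074 and 2029 CPM in shCTL. Mammary epithelial markers were abundant through Krt8, Krt18, Krt19 and Cdh1 (7176 to 10970 CPM summed over 9 markers in shCdGAP, 5908 to 8416 CPM in shCTL). Of these, Cdh1 rose (768 ± 85.3 CPM in shCdGAP, 232 ± 51.5 CPM in shCTL, SD, n = 3 each, edgeR adjusted p = 0.00193), while Epcam and Krt5 fell (Epcam to 0 counts in shCdGAP, against 92 in shCTL) and Krt14 and Elf5 were near 0 in both groups. Markers of other cell types summed to a few CPM. Over 7 fibroblast genes the sum was 3.41 to 7.02 CPM in shCdGAP and 5.35 to 6.19 CPM in shCTL, with Lum and Thy1 at 0 in every library. Over 5 endothelial genes it was 0 to 0.179 CPM in shCdGAP and 1.28 to 1.5 CPM in shCTL. Over 9 leukocyte genes it was 3.73 to 7.37 CPM in shCdGAP and 2.01 to 3.27 CPM in shCTL, with Adgre1 at 0 in every library, and over 4 adipocyte genes 0.363 to 1.21 CPM in shCdGAP and 2.26 to 3.24 CPM in shCTL, with Plin1 at 0. Of these 25 markers, Itgam rose and Tek and Cidec fell in shCdGAP, and their part in the results below was not tested.

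Of the 34 genes, those that passed the test with all libraries included and without pairing all fell in shCdGAP cells. Mdm2 fell 4.41-fold, and Plk3, Zmat3, Sesn2, Eda2r, Tnfrsf10b, Apaf1, Ccng1, Ercc5, Pmaip1 and Cdkn1a fell by smaller factors, the last 1.47-fold, while Trp53 itself did not pass the test, at 199 ± 32.1 CPM in shCdGAP and 205 ± 7.16 CPM in shCTL (SD, n = 3 each). Of the 34 genes, 11 fell and 0 rose at an adjusted p under 0.05 (edgeR quasi-likelihood test, Benjamini-Hochberg adjustment over 13483 genes), which is 32.4% of the genes, against 11.4% fallen and 10.4% risen among all genes tested. At an unadjusted p under 0.05, 12 of the genes were lower and 2, Sesn1 and Dram1, were higher, against 17.3% and 17.4% of all genes. DESeq2 also called 11 fallen and 0 risen, against 14.5% and 14% of all genes. With the replicate number as a block, 12 fell and 2, Gadd45a and Dram1, rose, against 10.9% and 9.47% of all genes. The median log2 fold change of the 34 genes was -0.33, against 0.01 for all genes tested, and 28 of the 34 (82.4%) had a negative value, against 49.1% of all genes. The shCdGAP libraries lay wholly below the shCTL libraries for 16 of the genes, and for 1, Dram1, wholly above, while 22.4% and 21.7% of all genes tested did so. Without shCdGAP replicate 1, 17 of the genes fell and 0 rose, against 21.9% and 19.9% of all genes. Cells that make less RNA of a gene and fewer cells that make it cannot be told apart in these bulk libraries.

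**Figure D1:**
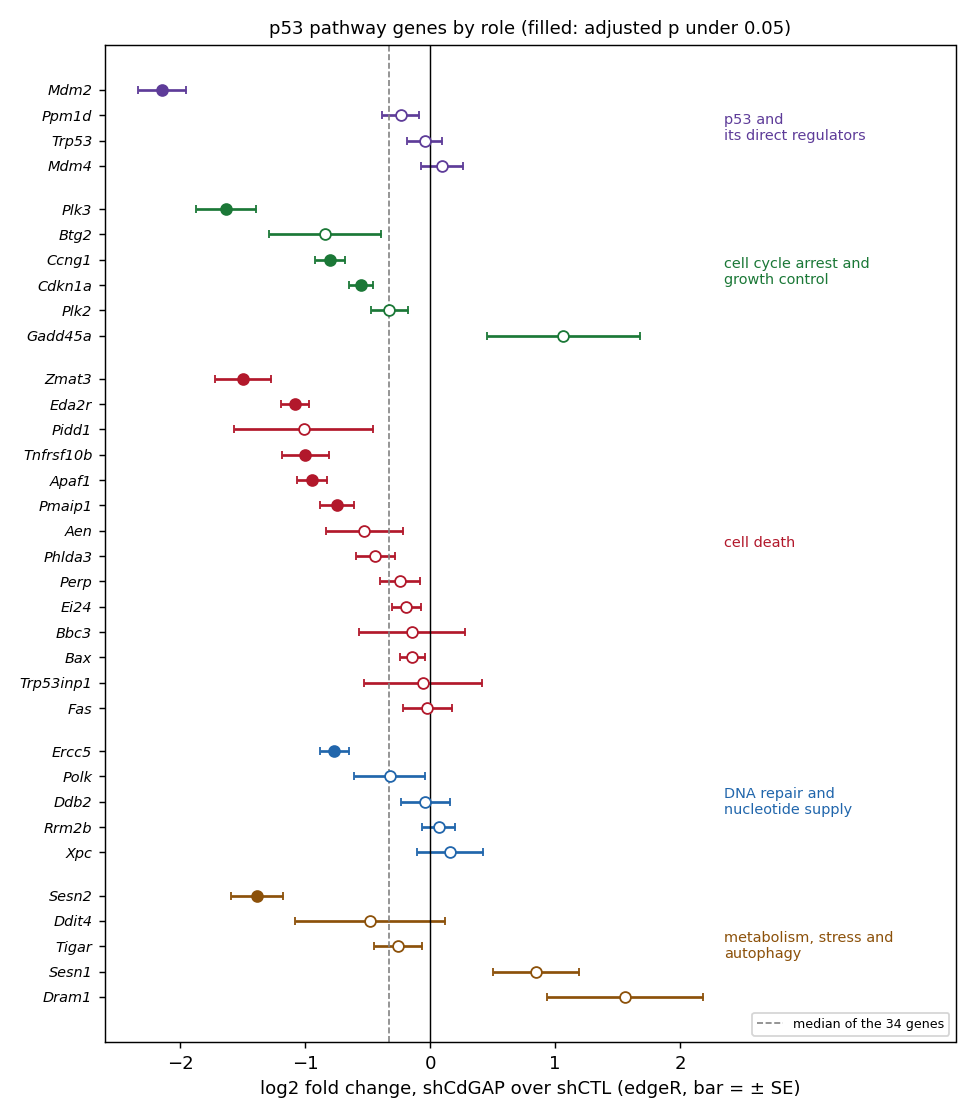
Log2 fold change of each of the 34 p53 pathway genes (shCdGAP over shCTL, horizontal axis, bars ± SE), grouped by role, with genes that passed the edgeR test filled and the median of the 34 genes (-0.33) as a dashed line. All 11 filled points lie left of 0, and all 14 cell death genes have a negative value with all libraries included.

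Of p53 and its 3 regulators, Mdm2 fell and the others did not pass. Mdm2 stood at 182, 193 and 197 CPM in shCdGAP replicates 1 to 3, against 1089.6, 754 and 684 CPM in shCTL replicates 1 to 3. The highest shCdGAP library was thus far below the lowest shCTL library, and the 3 shCdGAP libraries lay close together. The log2 fold change was -2.14 ± 0.19 (SE, adjusted p = 0.000942), the lowest of the 34 genes, and Mdm2 fell in each of the 14 fits made, with values from -2.27 to -1.87. Trp53 was at 163, 211 and 224 CPM in shCdGAP and at 206, 198 and 213 CPM in shCTL. These groups overlapped, with shCdGAP replicate 1 the lowest library, and the log2 fold change was -0.04 ± 0.14 (adjusted p = 0.86). Mdm4, whose product binds p53 and blocks its transcriptional activity, was at 145, 120 and 99.9 CPM in shCdGAP and 130, 108 and 105 CPM in shCTL, also overlapping (log2 fold change 0.09 ± 0.17, adjusted p = 0.74). Both Trp53 and Mdm4 have an annotated pseudogene, Trp53-ps and Mdm4-ps, whose reads could be shared with them. Ppm1d, a phosphatase that removes activating phosphates from p53, was at 17.0 ± 2.38 CPM in shCdGAP and 20.0 ± 0.236 CPM in shCTL (SD, n = 3 each) and did not pass (adjusted p = 0.32).

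Per kilobase of exon, Mdm2 ran at 0.892, 0.732 and 0.700 times the Trp53 level in shCdGAP replicates 1 to 3 and at 4.23, 3.03 and 2.57 times that level in shCTL. Against Mdm4, the ratio was 3.66 to 5.75 in shCdGAP and 19.1 to 24.5 in shCTL. Among the 34 genes ordered by mean CPM per kilobase, Mdm2 was at place 9 in shCdGAP (37.7 CPM per kilobase) and at place 3 in shCTL (166 CPM per kilobase). The first 2 places went to Bax (202 CPM per kilobase in shCdGAP, 224 in shCTL) and Ccng1 (164 in shCdGAP, 286 in shCTL), in that order in shCdGAP and reversed in shCTL. Dram1 was last in both groups, at 1.01 CPM per kilobase in shCdGAP and 0.351 in shCTL.

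Among 6 genes of cell cycle arrest and growth control, 3 fell and 0 rose, against 11.4% and 10.4% of all genes tested. The number fallen was 4 without shCdGAP replicate 1, and 2 without shCdGAP replicate 2 or shCTL replicate 2. Of all genes tested, 21.9%, 6.94% and 6.28% fell in these fits. Cdkn1a, which encodes the inhibitor of cyclin-dependent kinases through which p53 halts the cycle, was at 144, 130 and 125 CPM in shCdGAP, against 198, 198 and 188 CPM in shCTL. The groups were separate and each was tight, and the log2 fold change was -0.55 ± 0.10 (adjusted p = 0.0102). This call was lost without shCdGAP replicate 2 (adjusted p = 0.0519) or shCTL replicate 2 (0.0633), with log2 fold changes of -0.53 and -0.54. Ccng1, which encodes cyclin G1, a partner of a phosphatase that acts on Mdm2, was at 561, 547 and 623 CPM in shCdGAP and at 885, 1079.7 and 1045 CPM in shCTL. It fell by 0.80 ± 0.12 on the log2 scale (adjusted p = 0.00554) with no overlap. Plk3, a stress-responsive kinase of the polo family, was at 7.02, 8.48 and 6.34 CPM in shCdGAP, against 29.3, 21.2 and 17.3 CPM in shCTL, a log2 fold change of -1.63 ± 0.24 (adjusted p = 0.00517). Its relative Plk2 did not pass (124 ± 19.4 CPM in shCdGAP, 155 ± 14.1 CPM in shCTL, adjusted p = 0.17), although its groups did not overlap. The other genes of this group, Gadd45a and Btg2, are described with the libraries numbered 1. Gadd45a varied with the replicate number, and Btg2 was higher in shCdGAP replicate 1 than in shCdGAP replicates 2 and 3.

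**Figure D2:**
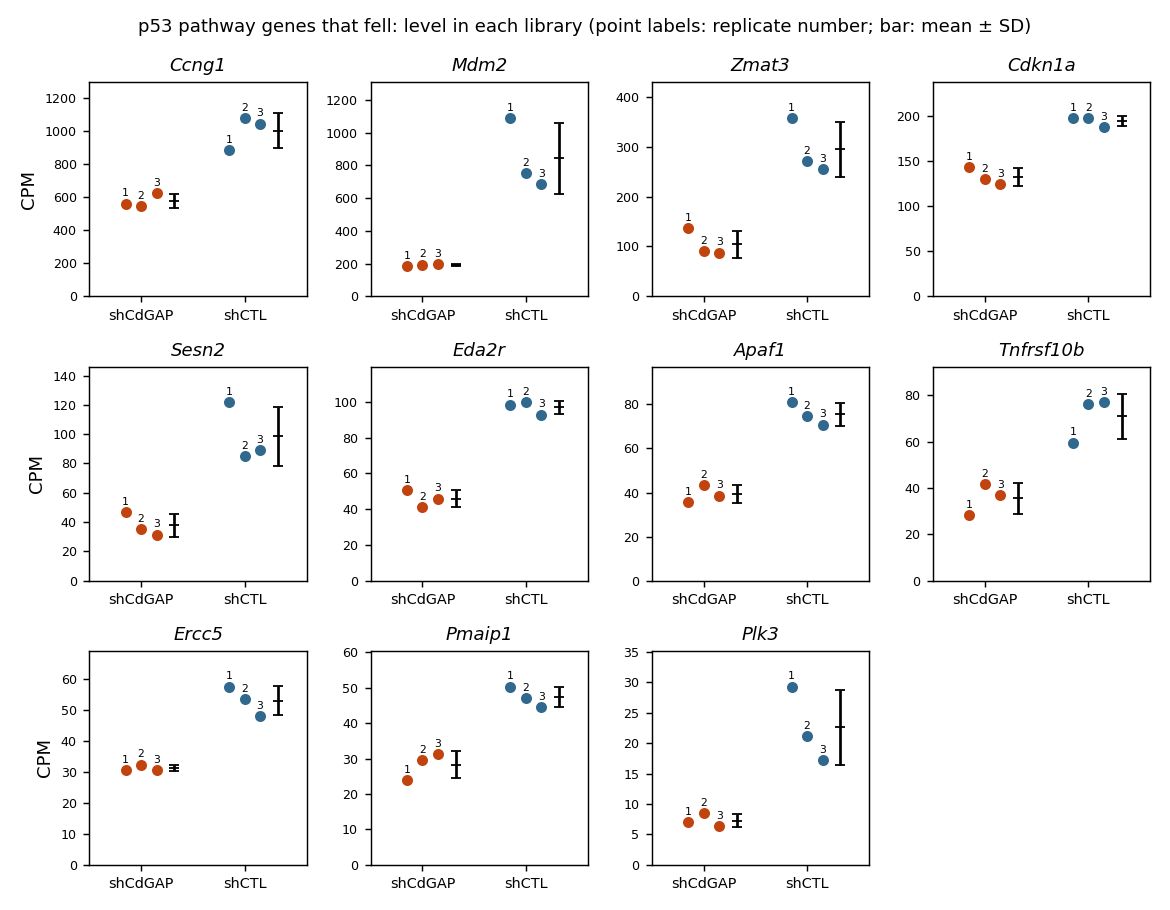
Level (CPM, vertical axis from 0) of the 11 p53 pathway genes that fell, in each shCdGAP and shCTL library, with points numbered by replicate and a bar for mean ± SD (n = 3). In every panel the highest shCdGAP point lies under the lowest shCTL point, from Ccng1 (577 ± 40.5 CPM in shCdGAP, 1004 ± 104 CPM in shCTL) down to Plk3 (7.28 ± 1.09 CPM in shCdGAP, 22.6 ± 6.14 CPM in shCTL).

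The promoters of Mdm2, Ccng1 and Cdkn1a are shown because these fallen genes hold the p53 half-site consensus close to a transcript start. The windows run from 250 bases before to 50 after the start, on the gene's own strand, from RefSeq (GRCm38.p6), and half-sites are in capitals.
Mdm2 (chr10:117710709-117711008, minus strand): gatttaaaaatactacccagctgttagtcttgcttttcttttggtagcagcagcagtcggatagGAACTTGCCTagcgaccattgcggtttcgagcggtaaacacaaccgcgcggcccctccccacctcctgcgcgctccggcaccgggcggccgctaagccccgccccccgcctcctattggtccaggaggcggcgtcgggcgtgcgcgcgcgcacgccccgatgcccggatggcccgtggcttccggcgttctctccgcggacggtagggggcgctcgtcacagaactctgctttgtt
Ccng1 (chr11:40755237-40755536, minus strand): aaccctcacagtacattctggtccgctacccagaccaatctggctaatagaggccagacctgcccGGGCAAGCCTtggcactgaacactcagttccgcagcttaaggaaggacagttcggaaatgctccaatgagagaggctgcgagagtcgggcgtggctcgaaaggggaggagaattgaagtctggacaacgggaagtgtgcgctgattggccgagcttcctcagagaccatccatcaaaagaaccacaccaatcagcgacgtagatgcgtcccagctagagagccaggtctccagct
Cdkn1a (chr17:29090729-29091028, plus strand): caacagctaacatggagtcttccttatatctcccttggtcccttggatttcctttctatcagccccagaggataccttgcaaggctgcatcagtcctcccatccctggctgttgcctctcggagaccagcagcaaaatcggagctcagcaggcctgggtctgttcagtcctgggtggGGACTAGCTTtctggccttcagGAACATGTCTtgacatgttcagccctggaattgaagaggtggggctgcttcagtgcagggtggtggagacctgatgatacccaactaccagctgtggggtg
The half-site begins at position -186 from the start for Mdm2 and -185 for Ccng1. The Cdkn1a window shown holds a pair, at -73 and -51, and 0.359% of all windows searched hold more than 1. The window of another Cdkn1a start, from 29093519 to 29093818, holds none. The consensus, 10 bases long and the same read on both strands, was searched for without mismatch. RefSeq windows were at hand for 26 of the 34 genes, and 11 of these held at least 1 half-site, against 9.55% of the 27025 genes with a window. The half-site was found in 3 of the 8 fallen genes with a window and in 8 of the 18 that did not pass (Aen, Bax, Ei24, Gadd45a, Polk, Ppm1d, Sesn1 and Trp53). A match is a description of the letters in the window, and distal or intronic sites lie outside it.

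Of 14 genes of cell death, 5 fell and 0 rose, and all 14 log2 fold changes were negative, from -1.49 to -0.02. The number fallen was 9 without shCdGAP replicate 1 and 3 without shCTL replicate 2. Of all genes tested, 21.9% and 6.28% fell in these 2 fits, against 11.4% with all libraries. Leaving out 1 library turned the values of Bbc3, Fas and Trp53inp1 positive, to at most 0.19, 0.070 and 0.23. Zmat3, a zinc finger RNA-binding protein that p53 induces, was at 136, 90.3 and 87.6 CPM in shCdGAP, against 358, 271 and 256 CPM in shCTL. Within each group the library numbered 1 was the highest, and the groups stayed well apart (log2 fold change -1.49 ± 0.22, adjusted p = 0.00552). Eda2r, a receptor of the tumour necrosis factor receptor family that binds a form of ectodysplasin, was at 50.6, 41.4 and 45.9 CPM in shCdGAP, against 98.5, 99.8 and 92.9 CPM in shCTL. It fell by 1.08 ± 0.11 on the log2 scale (adjusted p = 0.00149), and both groups were tight. Tnfrsf10b, the mouse death receptor for the ligand TRAIL, was at 28.2, 41.7 and 36.8 CPM in shCdGAP, against 59.6, 76.2 and 77 CPM in shCTL. Its log2 fold change was -0.997 ± 0.18 (adjusted p = 0.0119), and the call was lost without shCTL replicate 2 (adjusted p = 0.0591) or 3 (0.0563). Fas, another death receptor of the list, was at 12.1 ± 0.485 CPM in shCdGAP and 12.3 ± 2.68 CPM in shCTL (adjusted p = 0.95).

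Of the genes of the mitochondrial route to cell death, Apaf1 and Pmaip1 fell while Bax and Bbc3 did not pass. Apaf1, the scaffold of the apoptosome that activates caspase-9 after cytochrome c release, was at 35.5, 43.5 and 38.6 CPM in shCdGAP, against 81.0, 74.6 and 70.8 CPM in shCTL. Its log2 fold change was -0.94 ± 0.12 (adjusted p = 0.0032), with separate groups. Pmaip1, which encodes the BH3-only protein Noxa, was at 24.0, 29.5 and 31.2 CPM in shCdGAP, against 50.4, 47.0 and 44.6 CPM in shCTL. It fell by 0.75 ± 0.14 on the log2 scale (adjusted p = 0.0121), and this call was lost without shCTL replicate 1 (adjusted p = 0.0598) or 2 (0.0601). Bbc3, which encodes the BH3-only protein Puma, was at 11.8 ± 6.11 CPM in shCdGAP and 13.1 ± 4.99 CPM in shCTL (adjusted p = 0.85). The effector gene Bax was at 176 ± 4.98 CPM in shCdGAP and 194 ± 15.3 CPM in shCTL, with a log2 fold change of -0.14 ± 0.10 that did not pass (adjusted p = 0.36). Phlda3, an inhibitor of the kinase Akt, was at 97.9 ± 18.8 CPM in shCdGAP and 133 ± 4.16 CPM in shCTL (adjusted p = 0.097). Without shCdGAP replicate 1 its log2 fold change of -0.28 passed (adjusted p = 0.0296). Perp, a membrane protein of desmosomes and apoptosis, was at 100.4 ± 19.3 CPM in shCdGAP and 119 ± 10.5 CPM in shCTL, and the endoplasmic reticulum protein gene Ei24 at 120 ± 13.9 CPM in shCdGAP and 137 ± 4.75 CPM in shCTL. Neither passed (adjusted p = 0.33 and 0.30), and Perp did so without shCdGAP replicate 1 (log2 fold change -0.40, adjusted p = 0.015).

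Genes of DNA repair and nucleotide supply mostly did not pass: 1 of 5 fell and 0 rose, or 2 and 0 without shCdGAP replicate 1. Of all genes tested, 11.4% fell with all libraries and 21.9% without shCdGAP replicate 1. Ercc5, which encodes the nuclease XPG that cuts on the 3′ side of a lesion in nucleotide excision repair, was at 30.6, 32.3 and 30.5 CPM in shCdGAP, against 57.5, 53.4 and 48.0 CPM in shCTL. These groups were separate and tight, and the log2 fold change was -0.77 ± 0.11 (adjusted p = 0.00552). The damage sensors of the same repair pathway, Xpc (31.3 ± 11.7 CPM in shCdGAP, 28.1 ± 2.69 CPM in shCTL) and Ddb2 (11.3 ± 2.29 CPM in shCdGAP, 11.6 ± 0.988 CPM in shCTL), overlapped between groups (adjusted p = 0.73 and 0.92). So did Rrm2b, the p53-inducible subunit of ribonucleotide reductase (45.1 ± 6.02 CPM in shCdGAP, 43.1 ± 2.2 CPM in shCTL, adjusted p = 0.77). Polk, a DNA polymerase that copies past lesions, was at 43.5 ± 17.3 CPM in shCdGAP and 54.5 ± 4.37 CPM in shCTL (adjusted p = 0.47). Without shCdGAP replicate 1 its log2 fold change was -0.66 and passed (adjusted p = 0.0121).

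Of 5 genes of metabolism, stress and autophagy, 1 fell and 0 rose, or 2 fell and 1 rose with the replicate block. Of all genes tested, 11.4% fell and 10.4% rose without that block, and 10.9% fell and 9.47% rose with it. Sesn2, a sestrin that restrains the growth kinase mTORC1 when leucine is scarce, was at 46.7, 35.3 and 31.4 CPM in shCdGAP, against 122, 85.2 and 88.9 CPM in shCTL. It fell by 1.38 ± 0.21 on the log2 scale (adjusted p = 0.00575). Its relative Sesn1 was at 19.2, 10.7 and 7.89 CPM in shCdGAP and 8.15, 6.51 and 6.40 CPM in shCTL, with a log2 fold change of 0.84 ± 0.34 that did not pass (adjusted p = 0.14). Without both libraries numbered 1, Sesn1 rose (adjusted p = 0.0204). The 2 sestrin genes thus had values of opposite sign, and the difference between them was not tested. Tigar, a phosphatase that diverts sugar from glycolysis, was at 30.1 ± 6.84 CPM in shCdGAP and 35.9 ± 2.47 CPM in shCTL (adjusted p = 0.40). Dram1, a lysosomal membrane protein that promotes autophagy, and Ddit4, an inhibitor of mTORC1, varied with the replicate number.

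Both libraries numbered 1 differed from their own group in several of these genes. In shCdGAP replicate 1, 10 of the 34 genes were at least 1.5-fold above the mean of replicates 2 and 3 and 3 were as far below it. In shCTL replicate 1 these numbers were 7 and 1, and 5 genes were high in both libraries: Bbc3, Dram1, Ddit4, Gadd45a and Trp53inp1. These counts were not made over all genes, so they do not set the 34 genes apart. Across tested genes, chi-square over its degrees of freedom was 159 and 207 for shCdGAP replicate 1 against replicates 2 and 3. Between shCdGAP replicates 2 and 3 it was 14.2. In shCTL these values were 28.0, 29.0 and 3.17. Gadd45a, a stress sensor that can hold cells before mitosis, was at 51.0, 19.6 and 19.1 CPM in shCdGAP replicates 1 to 3, against 26.6, 8.48 and 7.98 CPM in shCTL replicates 1 to 3. Each shCdGAP library was thus 1.92 to 2.39 times its same-numbered shCTL library, while the groups overlapped. The log2 fold change was 1.07 ± 0.61 without pairing (adjusted p = 0.27), and with the replicate number as a block it was 1.13 ± 0.13 and passed (adjusted p = 0.011). Dram1 was at 4.69, 2.18 and 2.34 CPM in shCdGAP, against 2.06, 0.728 and 0.414 CPM in shCTL, a log2 fold change of 1.56 ± 0.63 (adjusted p = 0.13), or 1.69 ± 0.34 with the block (adjusted p = 0.0348). It also passed without shCTL replicate 1 (2.39, adjusted p = 0.0412). Ddit4 was at 165, 76.5 and 44.0 CPM in shCdGAP, against 229, 99.1 and 69.9 CPM in shCTL. It had a log2 fold change of -0.48 ± 0.60 (adjusted p = 0.62) that passed with the block (-0.51 ± 0.11, adjusted p = 0.038).

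For Btg2, Trp53inp1, Pidd1 and Aen the level in shCdGAP replicate 1 lay apart from that in replicates 2 and 3. Sesn1, Xpc, Polk and Zmat3 were also at least 1.5-fold higher in that library, and Tigar as far below. Btg2, an antiproliferative protein, was at 47.6, 22.9 and 12.7 CPM in shCdGAP, against 55.7, 49.2 and 43.9 CPM in shCTL, and did not pass (log2 fold change -0.84 ± 0.45, adjusted p = 0.24). Without shCdGAP replicate 1 it did (-1.47, adjusted p = 0.00171). Trp53inp1, a nuclear stress protein that enhances p53 activity, was at 255, 94.2 and 79.5 CPM in shCdGAP and 200, 123 and 123 CPM in shCTL, so that replicate 1 was the highest library of both groups. Its log2 fold change was -0.06 with all libraries and -0.76 without shCdGAP replicate 1 (adjusted p = 0.95 and 0.0236). Pidd1, a death domain protein that activates caspase-2, was low in that library, at 5.81, 26.7 and 30.6 CPM in shCdGAP against 34.1, 44.0 and 49.0 CPM in shCTL. Its log2 fold change was -1.01 ± 0.56 with all libraries (adjusted p = 0.25) and -0.55 without shCdGAP replicate 1, where it passed (adjusted p = 0.0241). Aen, a nuclease that p53 induces, was at 92.9, 184 and 225 CPM in shCdGAP and at 220, 245 and 258 CPM in shCTL (adjusted p = 0.28). The part played by the low proliferation genes of that library was not tested. Compared number by number, 21 of the 34 genes were lower in shCdGAP in all 3 pairs and 3 were higher in all 3 (Dram1, Gadd45a and Sesn1), against 30.7% and 29.8% of all genes tested. The labels do not give these pairs.

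**Figure D3:**
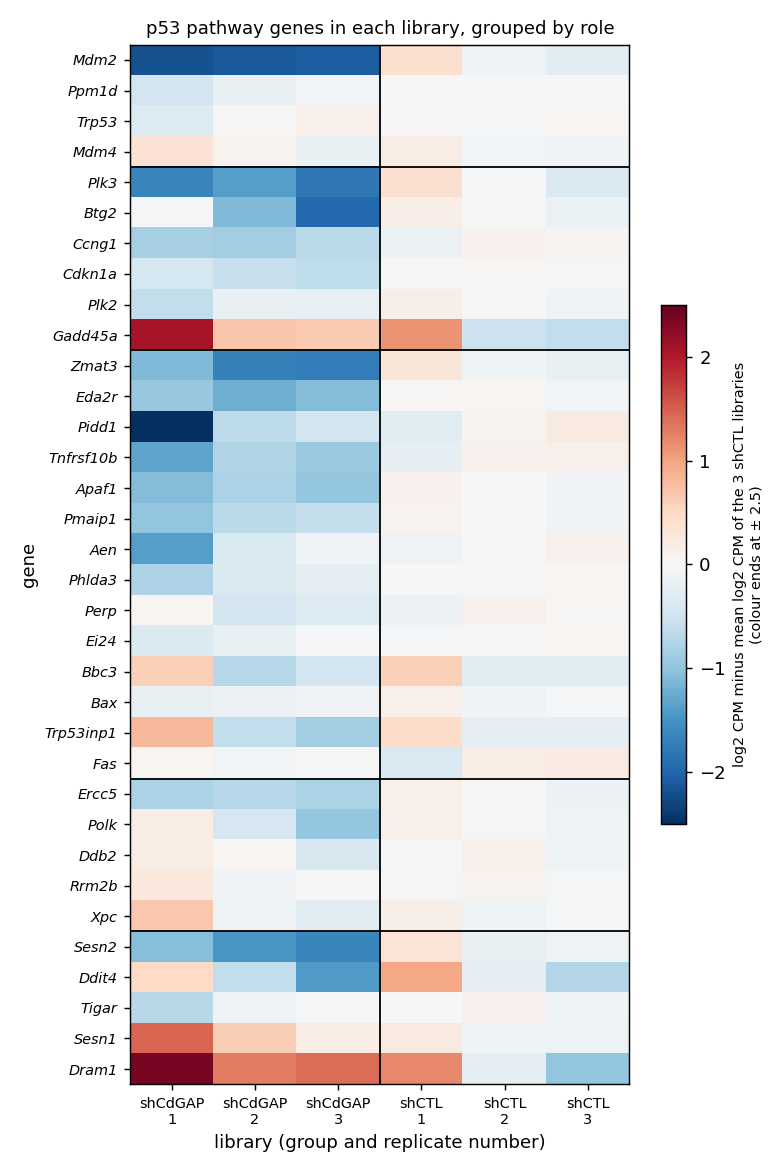
Log2 CPM of the 34 p53 pathway genes in each library, relative to the mean log2 CPM of the 3 shCTL libraries (blue lower, red higher, colours ending at ± 2.5), with shCdGAP libraries on the left and horizontal lines between the 5 role groups. Mdm2, Zmat3, Plk3 and Sesn2 are blue in all 3 shCdGAP libraries, whereas Gadd45a, Dram1 and Ddit4 are redder in the library numbered 1 than in libraries 2 and 3 of each group.

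The position of these genes was set beside their change, since regions of some chromosomes shifted between the groups. Mdm2 (ENSMUSG00000020184, minus strand) lies on GRCm38 chromosome 10 from 117688888 to 117710758. The 41 other tested genes within 5 Mb of it had a median log2 fold change of -0.33, with 13 fallen (31.7%, against 11.4% of all genes) and 3 risen, and 4 of the 41 had a lower value than Mdm2. Within 2 Mb the median of 17 genes was -0.17, with 1 fallen and 3 risen. Of its nearest tested neighbours, Cpm rose (log2 fold change 2.18 ± 0.33, adjusted p = 0.00582) and Slc35e3 did not pass (-0.24 ± 0.15, adjusted p = 0.33). Apaf1 (chromosome 10, 90989311 to 91082770) lay among 52 genes within 5 Mb with a median of -0.36 and 11 fallen, and within 2 Mb the median of 14 genes was -0.68 with 6 fallen. Anks1b, its nearest neighbour on one side, fell by 2.78 ± 0.22 on the log2 scale (adjusted p = 0.000613), and Ikbip on the other did not pass (-0.71 ± 0.31, adjusted p = 0.16). Dram1 (chromosome 10, 88322804 to 88379080) had a positive value where 19 of 49 neighbours fell, 0 rose and their median was -0.66, and none of the 49 had a higher value than Dram1. Whether the shift of this stretch of chromosome 10 contributes to the fall of Apaf1 or Mdm2 was not tested.

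Cdkn1a lay in a region that shifted upward, as did chromosome 17 as a whole. The 650 other tested genes of this chromosome had a median log2 fold change of 0.38, with 164 risen and 36 fallen. The 191 neighbours within 5 Mb of Cdkn1a (29090979 to 29100722, plus strand) had a median of 0.43. Of these, 56 rose (29.3%, against 10.4% of all genes) and 7 fell, and 10 of the 191 had a lower value than Cdkn1a. Trp53cor1, the p53-induced noncoding RNA gene next to it, was at 1.42 ± 1.91 CPM in shCdGAP and 0.537 ± 0.161 CPM in shCTL (adjusted p = 0.38). Around the other fallen genes the medians of the neighbours were close to 0, from -0.18 for Plk3 to 0.04 for Eda2r. Single neighbours also fell: Pik3ca beside Zmat3 (log2 fold change -0.92 ± 0.19, adjusted p = 0.0185), Ccbe1 beside Pmaip1 (-2.36 ± 0.25, adjusted p = 0.00162), Btbd19 beside Plk3 (-0.96 ± 0.17, adjusted p = 0.0107) and Med18 beside Sesn2 (-1.04, adjusted p = 0.0162). Around Pmaip1, 12 of the 45 neighbours fell and 2 rose. Set against the median of its neighbours within 2 Mb, Apaf1 was lower by a log2 difference of -0.26, Cdkn1a by -1.06 and Mdm2 by -1.97.

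**Figure D4:**
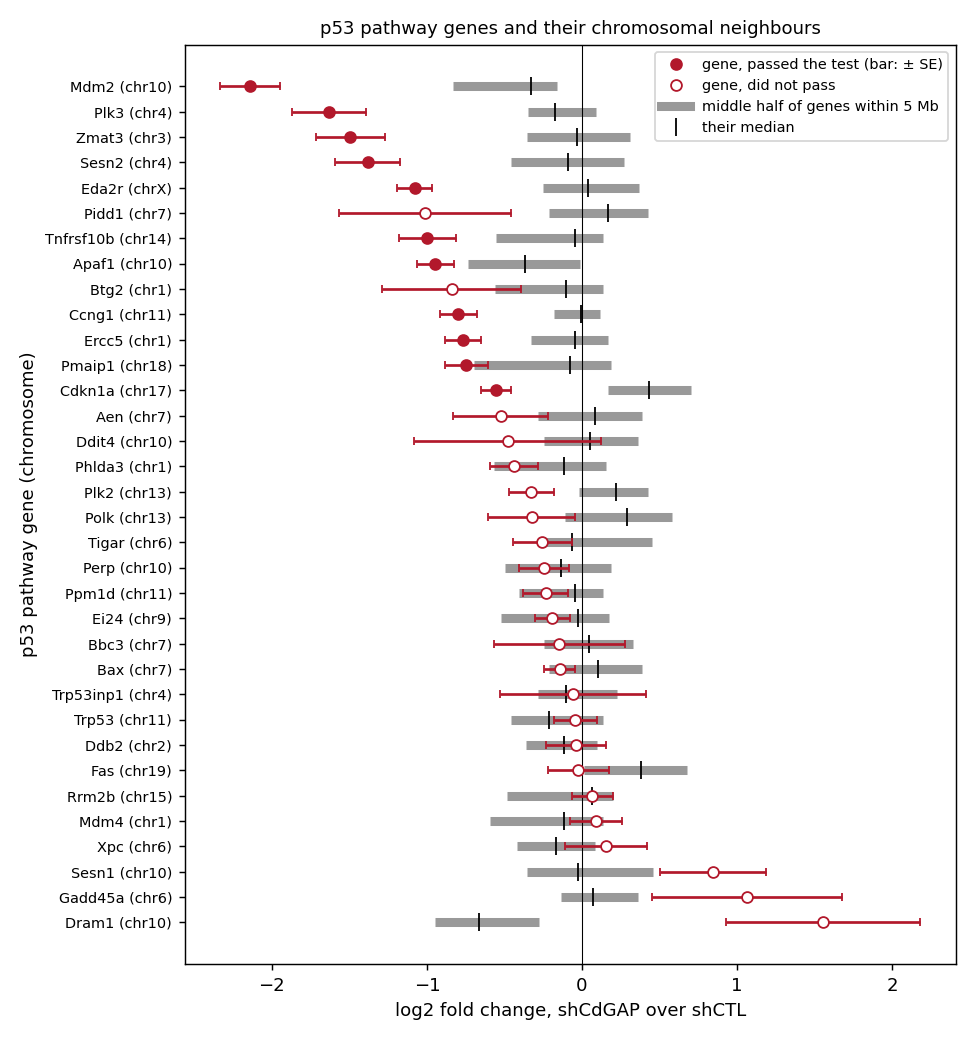
Log2 fold change of each of the 34 p53 pathway genes (points, bars ± SE, filled where the edgeR test passed) beside the interquartile range (grey bar) and median (tick) of the other tested genes within 5 Mb on the same chromosome. Mdm2 (-2.14) lies left of a bar centred on -0.33, Cdkn1a (-0.55) left of a bar centred on 0.43, and Dram1 (1.56) far right of a bar centred on -0.66.

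A further list of p53 pathway genes, upstream kinases, stabilisers, cofactors and other targets, was counted in the same fit. Of 52 symbols, which include both Cop1 and its older symbol Rfwd2, 50 were found and 46 tested. Among these, 9 fell (19.6%) and 5 rose (10.9%), against 11.4% and 10.4% of all genes. Of 25 further targets, 7 fell and 2 rose, of 8 kinases and sensors 0 fell and 2 rose, and of 13 stabilisers, ligases and cofactors 2 fell and 1 rose. Trp63 and Trp73, the relatives of Trp53, were too low to test in both groups. Without shCdGAP replicate 1, 13 of the 46 fell and 12 rose, against 21.9% and 19.9% of all genes. Without shCdGAP replicate 2 these numbers were 5 and 2, against 6.94% and 5.95% of all genes. Leaving out shCTL replicates 1, 2 and 3 gave 3, 1 and 2 risen, against 5.74%, 3.95% and 4.13% of all genes.

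Igfbp3, a secreted binder of insulin-like growth factors, fell to 72.7, 51.8 and 77.3 CPM in shCdGAP, against 433, 387 and 378 CPM in shCTL (log2 fold change -2.57 ± 0.18, adjusted p = 0.000416). Ak1, an adenylate kinase, was at 47.2 ± 4.86 CPM in shCdGAP and 168 ± 16.8 CPM in shCTL (log2 fold change -1.83 ± 0.13, adjusted p = 0.000426). Sp100, a component of nuclear bodies, had 0 counts in shCdGAP and 107 in shCTL and was at least 33.8-fold lower (floor of 3 counts over the group). Hipk2, a kinase that phosphorylates p53, rose to 35.7 ± 8.65 CPM in shCdGAP, against 15 ± 0.502 CPM in shCTL (log2 fold change 1.25 ± 0.20, adjusted p = 0.00689). The stress kinase gene Mapk14 (log2 fold change 0.53 ± 0.09, adjusted p = 0.0101) and the acetyltransferase gene Kat5 (0.55 ± 0.11, adjusted p = 0.015) rose too. Mapk14 (chromosome 17, 28691342 to 28748404) lies in the region around Cdkn1a, which shifted upward as the whole chromosome did. The 41 genes within 2 Mb of Cdkn1a, Mapk14 among them, had a median log2 fold change of 0.50, with 17 risen. Whether that shift contributes to the rise of Mapk14 was not tested. Mapk14 did not pass without shCTL replicate 2 (adjusted p = 0.0668), nor Kat5 without shCTL replicate 2 or 3 or shCdGAP replicate 2 (0.0894, 0.0818 and 0.0532). Cdkn2a, named after its values were seen because its product ARF blocks Mdm2, was at 16.0, 7.21 and 6.86 CPM in shCdGAP, against 67.9, 34.9 and 33.9 CPM in shCTL. It fell by 2.18 ± 0.45 on the log2 scale (adjusted p = 0.0169), and this call was lost without shCdGAP replicate 2 (adjusted p = 0.0656). The same locus also encodes the kinase inhibitor INK4A, and gene counts do not separate the 2 products.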

How the data were processed

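RNA-seq counts were analysed for 3 shCdGAP and 3 shCTL libraries. Per the file headers, the authors counted fragments per gene with featureCounts 1.4.6 (reverse-stranded, both ends aligned) from TopHat alignments, using Ensembl 77 (GRCm38), and deposited these counts raw. Genes on opposite strands were thus counted apart. The submitters' processing notes name DESeq, Cuffdiff 2.2.1, TopHat2 2.0.14, Trimmomatic 0.30 and CASAVA 1.8. Symbols matched 40254 of 41214 gene IDs.

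Counts were fitted with edgeR 4.0.16 in R 4.3.3 (filterByExpr, minimum count 10, minimum total 15; TMM; quasi-likelihood F test; Benjamini-Hochberg adjustment over 13483 genes). Fold changes put shCdGAP over shCTL, their SE was taken as the size of the log2 value over the root of F, and CPM are TMM-scaled. A count of 0 allows 0.109 to 0.155 CPM per library (3 counts, counting error only). The fit was tested on simulated counts.

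The genes and lists were chosen with earlier results of these data known. All 34 genes were named; genes given library by library beyond those that passed were chosen after their values were seen. Neighbours were tested genes within 5 Mb. Alternatives were RLE factors, total counts, DESeq2 1.42.0, no filter, a mean of at least 10 CPM, each library left out, a replicate block and, chosen after seeing the data, leaving out both libraries numbered 1. The replicate block took same-numbered libraries as pairs, which the labels do not state. Deviations of these libraries from their group means correlated over genes at 0.346, 0.274 and 0.235 for numbers 1, 2 and 3. Crossed, shCdGAP 2 with shCTL 3 correlated at 0.242 and shCdGAP 3 with shCTL 2 at 0.177. With both libraries numbered 1 apart, numbers 2 and 3 deviate the other way in each group, so these values cannot tell how numbers 2 and 3 pair. Even the most alike libraries (shCTL 2 and 3) differed beyond counting noise, with chi-square over its degrees of freedom at 3.17, so none was treated as a copy of another; this does not show that they came from separate cultures.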

Additional observations from a re-analysis of the deposited data

How the results depend on the processing

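The 11 fallen genes passed under both other scalings, DESeq2, both other filters and the replicate block. With 1 library left out, 8 to 17 genes fell and 0 to 1 rose, with Cdkn1a, Pmaip1 and Tnfrsf10b the calls lost. The replicate block gave 2 risen genes and changed no calls among the 34 other than those of Gadd45a, Dram1 and Ddit4. Without both libraries numbered 1, 18 fell and 3 rose (Gadd45a, Sesn1 and Dram1), 16 and 14 of the further list did, and 3640 and 3475 of all genes (26.7% and 25.5%). In the further list, 5 to 13 fell and 1 to 12 rose with 1 library left out. Among all genes 856 to 3032 fell (6.28% to 21.9%) and 538 to 2753 rose (3.95% to 19.9%) with 1 library left out. At a mean of at least 10 CPM, where fewer genes were tested, 825 fell and 870 rose (8.85% and 9.33%).

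The median log2 fold change of the 34 genes was -0.38 with total counts, -0.40 at a mean of at least 10 CPM (32 genes), -0.37 with the replicate block, -0.38 without both libraries numbered 1, and -0.48 to -0.27 with 1 library left out. Log2 fold changes that crossed 0 belonged to genes that did not pass with all libraries. With 1 library left out they ran from -0.13 to 0.094 for Trp53, -0.042 to 0.22 for Mdm4, -0.63 to 0.19 for Bbc3, -0.21 to 0.070 for Fas, -0.76 to 0.23 for Trp53inp1, -0.034 to 0.14 for Rrm2b, -0.18 to 0.33 for Xpc, -0.15 to 0.12 for Ddb2 and -1.13 to 0.14 for Ddit4. Without both libraries numbered 1 the values were 0.093 for Trp53, -0.053 for Rrm2b and -0.10 for Xpc. The cause was not tested.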
